A study of Mus musculus with 2 samples.

Results

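The genes encoded by mitochondrial DNA were measured in single bone marrow cells of the Fucci cell cycle reporter mouse. They were chosen by symbol, as the genes of chromosome M whose names start with mt-. Of the 37 such genes in GENCODE M21, 36 could be read, out of 53273 annotated genes in the count tables. They comprised 13 protein-coding genes, 2 ribosomal RNA genes and 21 transfer RNA genes, and the gene that could not be read was mt-Tp, a transfer RNA. The cells came from 8-week-old C57BL/6 mice for work on quiescent hematopoietic stem cells, and the labels give no treatment, no sort marker besides the reporter and no animal numbers. The reporter pairs an orange protein, mKO2 on a piece of Cdt1, which is present in G0 and G1, with a green protein, mAG on a piece of geminin, which is present in S, G2 and M. Of 4 gates of 48 cells each, mKO2high and mKO2low shared 1 library, and mKO2neg and mAG+ shared the other. Libraries were made by a modified Smart-seq2 method that enriched the 3' ends of transcripts, so reads are expected mainly near the 3' end of a gene. The tables hold 1 count per gene and cell and no positions, and this was not tested.

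Mitochondrial DNA is a small circular genome that is transcribed from both strands into long precursors. Transfer RNAs sit between most of the other genes, and cutting them out releases most messenger and ribosomal RNAs. Most of these then receive short poly(A) tails. The messenger RNAs encode core subunits of the respiratory chain: mt-Nd1 to mt-Nd6 and mt-Nd4l belong to complex I, mt-Cytb to complex III, mt-Co1 to mt-Co3 to complex IV, and mt-Atp6 and mt-Atp8 to ATP synthase. The remaining subunits are encoded in the nucleus. Quiescent blood stem cells are known for relying little on respiration, and mitochondrial activity is known to rise as they enter the cycle.

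Gene labels in the deposited tables stood 1 gene away from their counts, in the order of the annotation, so each gene was read from the row of the gene before it. The effect was plain on chromosome M. Under their own labels the 21 transfer RNA rows, whose genes are at most 75 bases long, held 220089 counts, while the 13 protein-coding rows held 19197 and the 2 ribosomal RNA rows 19. Read from the preceding row, the ribosomal RNAs held 140744 counts, the protein-coding genes 96647 and the transfer RNAs 1412. The row labelled mt-Tv, with 106805 counts, was thus read as mt-Rnr2, and the row labelled mt-Nd4l, with 12884 counts, as mt-Nd4. Every value below is given after this correction, which is a reading of the tables and not a statement of the submitters.

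Mitochondrial genes held 238803 of 7037513 counts, or 3.393%. Gate totals were 934036 counts in mKO2high and 1703263 in mKO2low, with 1608630 in mKO2neg and 2791584 in mAG+, and 44, 48, 43 and 44 cells had at least 1000 gene rows with a count. The labels give 2 samples, 1 per library, and each gate was measured once, in 1 of them, so no test between gates was run and differences have no replicate check. Intervals are exact 95% intervals for counting error only, and levels are CPM, a gene's counts scaled to the gate's total. Summed CPM of 20 genes of G2 and mitosis was 205.6 in mKO2high and 465 in mKO2low, with 1601 in mKO2neg and 12040 in mAG+, the order of the reporter. Ptprc, the pan-leukocyte marker, lay between 150.4 and 173.4 CPM in all 4 gates. Summed CPM of 8 stem and progenitor markers was 1420 to 1823, of 6 myeloid markers 880.5 to 1507 and of 6 erythroid markers 184 to 357. It was 81.37 to 198.8 for 6 B cell markers, 105.3 to 380.1 for 4 megakaryocyte markers, 0 to 36.9 for 4 T and NK cell markers and 22.9 to 33.31 for 5 markers of stroma and endothelium. The megakaryocyte sum was highest in mKO2high and lowest in mAG+, and the B cell sum was highest in mAG+. Of the defining markers, Cd3e and Cd3g of T cells, Gzma of cytotoxic cells, Ctsg of granule-bearing myeloid cells, and Lepr and Cdh5 of stroma and endothelium were at 0 in all gates. The part of cell makeup in the values below was not tested, and more cells of a type cannot be told apart from more RNA per cell in gate sums.

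One mKO2high cell stood apart from all others. It had 16304 counts in 2874 gene rows, and 7213 of these counts, or 44.24%, were mitochondrial. The next highest share among cells with at least 1000 gene rows was 5.894%. This cell carried 17.66% of its counts in mitochondrial messenger RNA and 26.07% in mitochondrial ribosomal RNA. Because 1 cell of 48 moved the mKO2high sums, the mitochondrial results that turn on this gate are given with and without it.

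The annotated 3' ends of mitochondrial protein-coding genes are shown first, because the method enriches 3' ends. Whether the transcripts in these cells end there was not tested. Each line gives the last 30 bases of the gene in GENCODE M21 (GRCm38), with the stop codon, or the part of it that the genome encodes, in capitals. The positions are chrM:15259-15288 for mt-Cytb, chrM:11515-11544 for mt-Nd4, chrM:9361-9390 for mt-Co3, chrM:3678-3707 for mt-Nd1, chrM:6843-6872 for mt-Co1 and chrM:13536-13565 for mt-Nd5, all on the plus strand, and chrM:13552-13581 on the minus strand for mt-Nd6.
mt-Cytb: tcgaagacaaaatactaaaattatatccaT
mt-Nd4: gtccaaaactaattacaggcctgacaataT
mt-Co3: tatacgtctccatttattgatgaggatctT
mt-Nd1: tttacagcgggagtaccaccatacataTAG
mt-Co1: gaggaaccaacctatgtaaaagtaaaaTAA
mt-Nd5: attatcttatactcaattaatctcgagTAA
mt-Nd6: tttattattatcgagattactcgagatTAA
mt-Cytb, mt-Nd4 and mt-Co3 end in a single T, and the poly(A) tail is known to complete such stop codons. The other 10 protein-coding genes carry a whole stop codon. Neither kind of end went with detection: mt-Cytb and mt-Nd4 were among the most counted messenger RNAs and mt-Co3 had no count. The genes mt-Nd5 and mt-Nd6 end against each other on opposite strands, and their annotated ends overlap. Whether the counting used strand is not given in the sources used here, so reads of mt-Nd6 and of transcripts antisense to it cannot be told apart.

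Only 8 of the 13 protein-coding genes had 10 or more counts over all cells. The other 5 held 1 count in all: mt-Atp6 had 1, and mt-Co2, mt-Co3, mt-Atp8 and mt-Nd4l had 0, where a floor of 3 counts over the gate is 3.21 CPM in mKO2high and 1.76 in mKO2low, with 1.86 in mKO2neg and 1.07 in mAG+. The exact 95% upper limits that 0 counts allow are 3.95, 2.17, 2.29 and 1.32 CPM in the same order. These 5 genes include most of the mitochondrial subunits of complex IV and both of ATP synthase. Nuclear genes of the same complexes were well covered, with 14 of 15 ATP synthase genes and 11 of 11 complex IV genes at 10 or more counts.

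A search of the messenger RNAs against all other annotated transcripts found near-identical nuclear copies of 7 of them, at 98% identity or more over at least 200 bases. All 7 copies are unprocessed pseudogenes side by side on chromosome 1, within a stretch of 4663 bases at chr1:24611535-24616197 on the minus strand. Of the 5 genes with fewer than 10 counts, 4 had such a copy along 99.0% or more of their length. These were mt-Co2 with Gm28661, mt-Atp6 with Gm10925, mt-Co3 with Gm28437 and mt-Nd4l with Gm10222, each identical to its copy over 681, 678, 783 and 294 bases. The fifth, mt-Atp8, shared only its last 43 bases with an annotated copy, Gm10925, at 100% identity. The genomic sequence between Gm10925 and Gm28661 was not searched. The 7 copies together held 31 counts, with 15 in Gm29216 as the highest, so the counts of the 5 genes were not found in the rows of the copies. Whether reads that match both places were dropped was not tested.

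The sequences below show how little tells a gene and its copy apart. Each is 60 bases, 5' to 3' in the sense of the gene, with bases that differ between the pair in capitals. The mt-Co2 stretch lies at chrM:7634-7693 (plus strand) and its copy at chr1:24614885-24614944 (minus strand). The mt-Co1 stretch is chrM:6390-6449 and its copy chr1:24616129-24616188, and the mt-Nd3 stretch is chrM:9459-9518 and its copy chr1:24613060-24613119, on the same strands as before.
mt-Co2: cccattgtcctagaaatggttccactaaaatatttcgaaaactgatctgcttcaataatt
Gm28661: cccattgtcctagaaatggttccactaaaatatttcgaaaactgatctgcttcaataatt
mt-Co1: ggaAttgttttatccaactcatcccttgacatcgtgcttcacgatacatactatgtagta
Gm29216: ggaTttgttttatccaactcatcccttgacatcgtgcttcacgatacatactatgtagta
mt-Nd3: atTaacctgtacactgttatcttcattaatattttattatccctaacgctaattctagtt
Gm28438: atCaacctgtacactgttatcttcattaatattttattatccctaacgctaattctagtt
The mt-Co2 pair does not differ in this stretch. The mt-Co1 pair differs by A1066T and the mt-Nd3 pair by T3C, each being the only difference over the shared 483 and 345 bases (gene base first, position counted from 1 at the gene's first base, then the copy's base).

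Genes with a copy included counted and uncounted ones, and the part of the copies in this was not tested. The 4 genes identical to their copy along 99.0% or more of their length held 0 or 1 count each. The gene mt-Nd3 had 1847 counts, and Gm28438 aligns with 345 of its 348 bases with 1 difference. In mt-Co1, with 10243 counts, the copy covers the last 483 of 1545 bases, and in mt-Nd4, with 12884 counts, it covers the first 876 of 1378 bases and leaves the 502 bases at the 3' end unmatched. None of the remaining measured messenger RNAs, mt-Nd1, mt-Nd2, mt-Nd5, mt-Nd6 and mt-Cytb, had a copy that met these limits. More distant copies, at 95.18% to 97.61% identity, were found for mt-Nd5, mt-Co2, mt-Nd2 and mt-Co1. Only annotated transcripts were searched, so nuclear copies outside annotated genes were not analysed here.

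**Figure D1:**
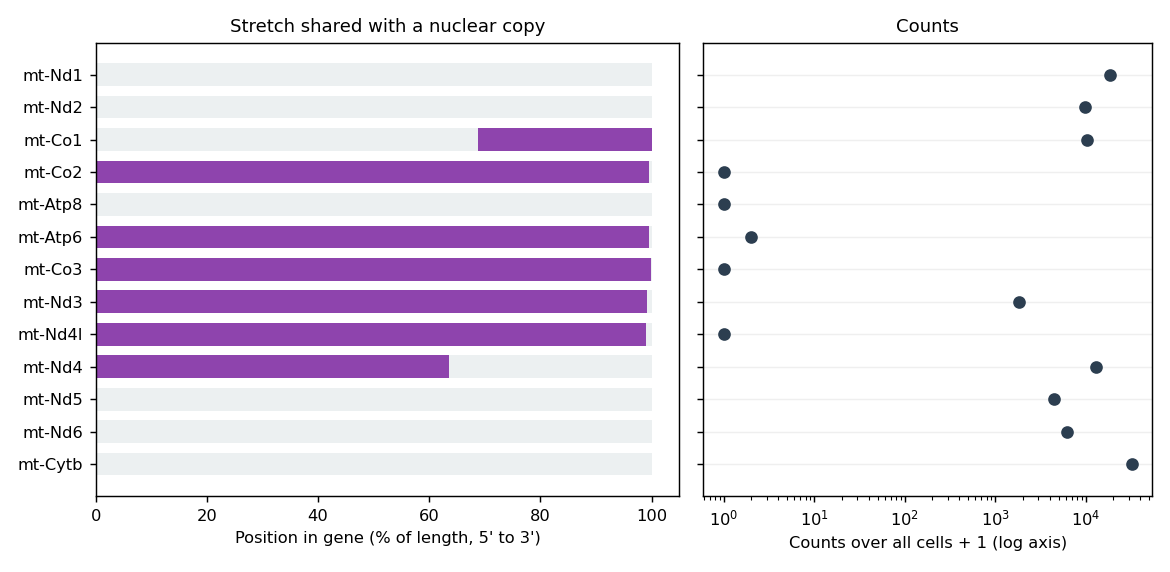
The left panel shows the 13 protein-coding genes as bars from 5' to 3' (percent of length), with the stretch shared with a nuclear copy at 98% identity or more in purple. The right panel shows counts over all cells plus 1 on a log axis: mt-Co2, mt-Atp6, mt-Co3 and mt-Nd4l are covered almost whole and hold 0 or 1 count, and mt-Nd3 holds 1847 with a copy. For mt-Atp8, which holds 0, no such copy was found among annotated transcripts, the only sequences searched.

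Among the measured genes, counts per kilobase were highest for the large ribosomal RNA mt-Rnr2 at 67513, followed by the small ribosomal RNA mt-Rnr1 at 35538. Both are the structural RNAs of the mitochondrial ribosome, which translates only the mitochondrial messenger RNAs. Of the messenger RNAs, mt-Cytb led with 28364 counts per kilobase, followed by mt-Nd1 with 19580 and mt-Nd6 with 11940. Lower values were found for mt-Nd2 (9420), mt-Nd4 (9350), mt-Co1 (6630) and mt-Nd3 (5307), and mt-Nd5 was lowest with 2473. These are pooled over gates of unequal depth. Within each gate mt-Cytb and mt-Nd1 led the messenger RNAs and mt-Co1, mt-Nd3 and mt-Nd5 were lowest, in that order, while mt-Nd6, mt-Nd2 and mt-Nd4 lay between them in an order that differed by gate. These levels differed widely although all of the 8 but mt-Nd6 lie on the plus strand and are known to be transcribed together. Where 3' ends are enriched, counts need not scale with length, and mt-Nd5 is the longest of these genes.

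**Figure D2:**
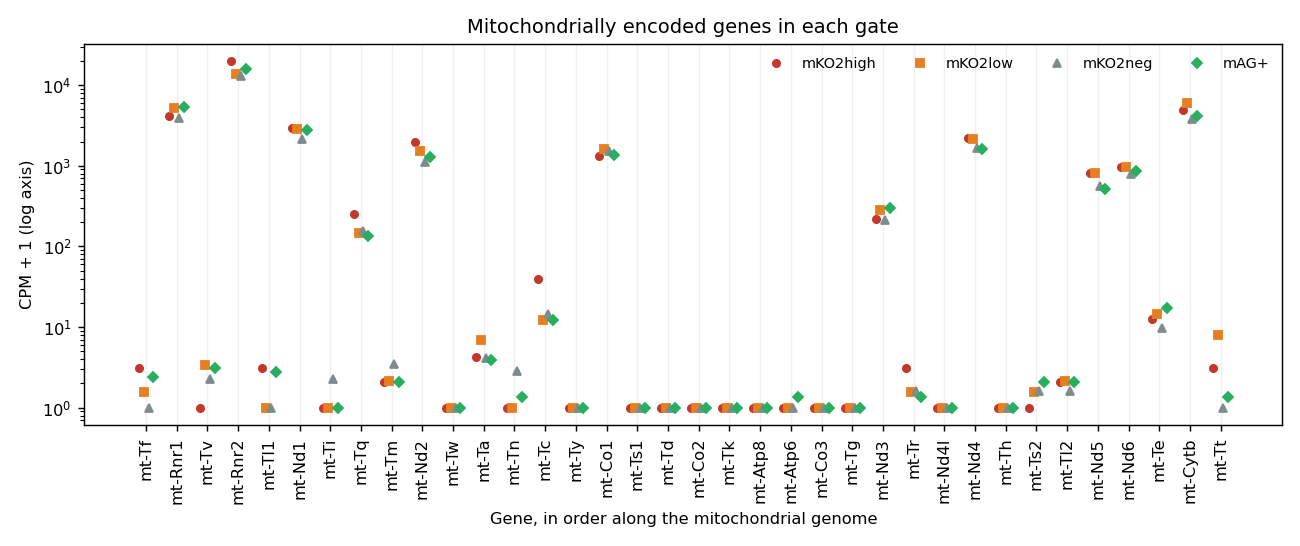
CPM plus 1 (log axis) of the 36 genes in their order along mitochondrial DNA, with 1 symbol per gate. The 2 ribosomal RNAs and 8 messenger RNAs lie at 211.36 CPM or higher in every gate, and mt-Tq is the only other gene above 100 CPM, at 253.74 in mKO2high where mt-Nd3 is at 217.34.

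Transfer RNAs are short, folded and lack a poly(A) tail once processed, and few reads fell on them. They held 1412 counts, 0.591% of the mitochondrial total, and of the 21 genes 7 had no count, 7 had 1 to 9 and 7 had 10 or more. The minus strand carried 1342 of these counts in 7 genes, against 70 in the 14 genes of the plus strand. The 4 transfer RNAs with the most counts, mt-Tq, mt-Tc, mt-Te and mt-Ta, were all on the minus strand, and the most counted gene of the plus strand, mt-Tt, had 15. A minus-strand transfer RNA lies opposite the precursor of the plus-strand messenger RNAs, and since strand use is not given, its reads cannot be told apart from those of that precursor.

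Of these, mt-Tq, the transfer RNA for glutamine (chrM:3772-3842), held 1111 counts, with 253.74 CPM in mKO2high and 145.6 in mKO2low, with 156.66 in mKO2neg and 133.97 in mAG+. The mKO2high gate was high, with a log2 ratio of mKO2low to mKO2high of -0.80 (-1.06 to -0.54), which was -0.33 without the mitochondrial-rich cell. The cysteine transfer RNA mt-Tc had 38.5 CPM in mKO2high from 36 counts, 11.2 in mKO2low from 19, 13.7 in mKO2neg from 22 and 11.1 in mAG+ from 31. Here mKO2high was the high gate with a log2 ratio of mKO2low to mKO2high of -1.72 (-2.67 to -0.95), and it stayed so without that cell at -1.54. With each cell thinned to 5000 counts the ratio was -0.59. The glutamate transfer RNA mt-Te lay between 8.70 and 16.1 CPM and the alanine transfer RNA mt-Ta between 2.87 and 5.87 CPM, and the intervals of all 4 ratios computed for each span 0.

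The ribosomal RNAs did not move as a pair between gates. CPM of mt-Rnr1 (chrM:70-1024) was 4104 in mKO2high and 5193 in mKO2low, with 3884 in mKO2neg and 5378 in mAG+. That of mt-Rnr2 (chrM:1094-2675) was 19758, 13837, 12909 and 15767 in the same order. Without the mitochondrial-rich cell the mKO2high values were 3070 CPM for mt-Rnr1 and 16585 for mt-Rnr2. So mKO2high had the most mt-Rnr2 with or without that cell, and its mt-Rnr1 was below that of mKO2low and mAG+ with the cell and the lowest of all gates without it, and mAG+ had more of both than mKO2neg in gate sums, though not with equal weight for every cell. Against mKO2high, mKO2low had a log2 ratio of 0.34 (0.28 to 0.40) for mt-Rnr1 and -0.51 (-0.54 to -0.49) for mt-Rnr2, and without the mitochondrial-rich cell these were 0.76 and -0.26. Against mKO2neg, mAG+ had log2 ratios of 0.47 (0.43 to 0.51) and 0.29 (0.26 to 0.31). These mAG+ ratios turned to -0.28 and -0.40 when each cell had equal weight, and were 0.39 and 0.16 when equal weight was limited to cells with at least 1000 gene rows.

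The same showed in the ratio of the genes. Counts of mt-Rnr1 per count of mt-Rnr2 were 0.208 in mKO2high (0.185 without the mitochondrial-rich cell) and 0.375 in mKO2low, with 0.301 in mKO2neg and 0.341 in mAG+. Over cells with at least 1000 gene rows the medians were 0.1825, 0.3174, 0.3107 and 0.3731, with quartiles of 0.1392 to 0.2585 in mKO2high, 0.2266 to 0.5203 in mKO2low, 0.2442 to 0.396 in mKO2neg and 0.2901 to 0.4697 in mAG+. The quartile range of mKO2high overlapped those of mKO2low and mKO2neg only at its upper end, and did not reach that of mAG+. From cell to cell the genes went together within a gate, with Spearman's rho between their CPM of 0.74 over 43 mKO2high cells (without the mitochondrial-rich cell), 0.74 over 48 mKO2low cells, 0.42 over 43 mKO2neg cells and 0.45 over 44 mAG+ cells. Both genes share a cell's depth and total, and these values are a description.

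Levels of mt-Rnr1 in mKO2low cells also followed the number in the cell's name. The median was 1640 CPM over cells 49 to 56 and 1910 over cells 57 to 64, against 5500, 6720, 15300 and 6780 over the following groups of 8 cells. In the same first 2 groups the median share of messenger RNA was 1.32% and 1.27%, against 1.56% to 1.77% in the others. The median of mt-Rnr1 per mt-Rnr2 was 0.143 and 0.217 in these 2 groups, against 0.303 to 0.767 in the other mKO2low groups. In the mKO2high groups it was 0.128 to 0.267, so the first 2 mKO2low groups lay within the mKO2high range. The mKO2high groups, cells 1 to 48 of the same library, had mt-Rnr1 medians of 1320 to 5360 CPM, and those of mKO2neg and mAG+ had 2490 to 5320 and 3770 to 8180 CPM. What the numbers stand for is not given in the sources used here, and their part in the differences between gates was not tested.

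**Figure D3:**
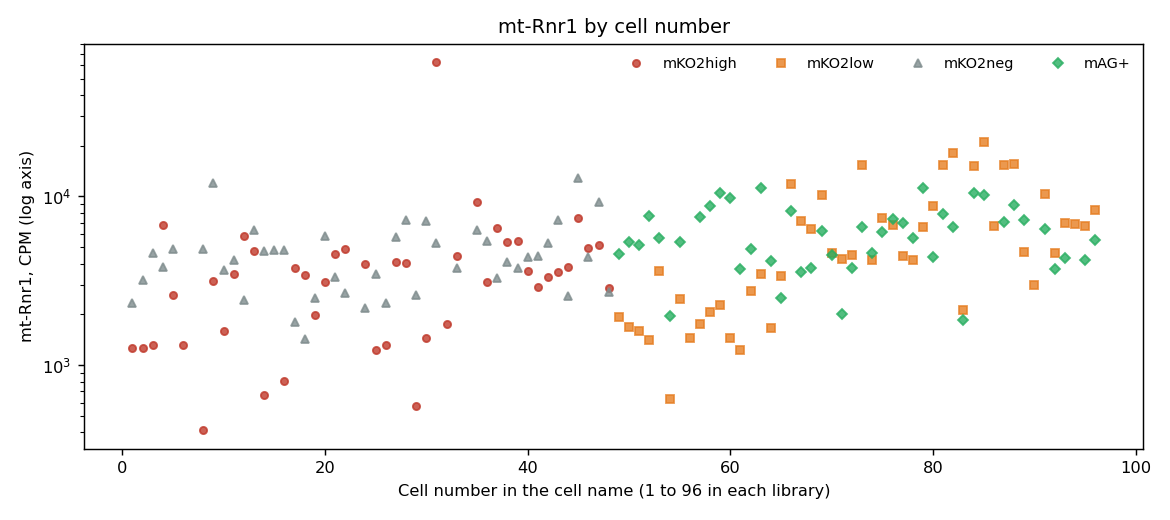
CPM of mt-Rnr1 (log axis) in each cell with at least 1000 gene rows against the number in its name, 1 symbol per gate; mKO2high and mKO2low are 1 library, mKO2neg and mAG+ the other. Cells 49 to 64 of mKO2low lie mostly below the other mKO2low cells, and 1 mKO2high cell lies far above all others.

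The messenger RNAs were most abundant in mKO2low and least in mKO2neg. Their summed share of a gate's counts was 1.535% (1.51 to 1.56) in mKO2high and 1.618% (1.599 to 1.637) in mKO2low, with 1.177% (1.161 to 1.194) in mKO2neg and 1.283% (1.27 to 1.296) in mAG+. Without the mitochondrial-rich cell the mKO2high share was 1.248% (1.225 to 1.271), next to mAG+. Over cells with at least 1000 gene rows the median share was 1.197% in mKO2high and 1.606% in mKO2low, with 1.153% in mKO2neg and 1.228% in mAG+, so the cell medians put mKO2low apart from the other 3 gates whether or not that cell was counted. The lower and upper quartiles were 0.9971% to 1.536%, 1.33% to 1.812%, 0.9828% to 1.31% and 1.111% to 1.34% in that order. These overlap between mKO2high and mKO2low, while the lower quartile of mKO2low lay above the upper quartile of mKO2neg.

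**Figure D4:**
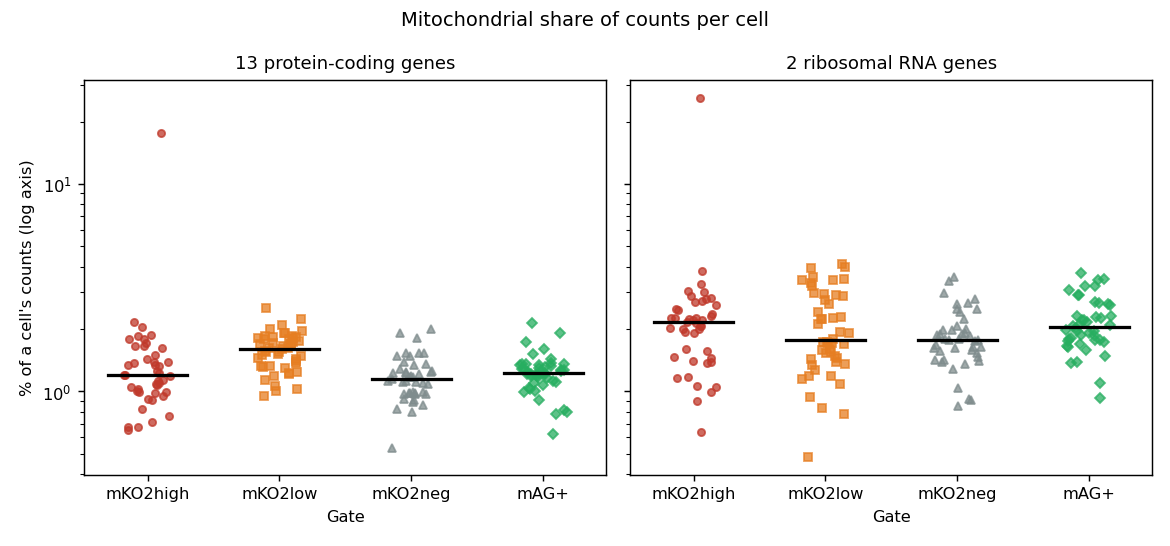
Share of each cell's counts (percent, log axis) in the 13 protein-coding and the 2 ribosomal RNA genes, by gate, for cells with at least 1000 gene rows; points are cells and bars medians. Median messenger RNA shares are 1.197%, 1.606%, 1.153% and 1.228% from left to right, and 1 mKO2high cell at 17.66% and 26.07% lies far above all others.

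Within the library of the orange gates, mKO2low against mKO2high, the summed log2 ratio of the messenger RNAs was 0.08 (0.05 to 0.11), or -0.11 with every cell thinned to 5000 counts. Without the mitochondrial-rich cell it was 0.37 (0.34 to 0.41), and 0.30 when thinned as well. The largest messenger RNA, by counts, was mt-Cytb, the only mitochondrial subunit of complex III, with 4887 CPM in mKO2high and 6054 in mKO2low. It was higher in mKO2low with that cell, at 0.31 (0.26 to 0.36) or 0.10 with every cell thinned to 5000 counts, and without it, at 0.49 or 0.33 when thinned. The same held for mt-Co1, the catalytic subunit of complex IV, with 1318 and 1600 CPM and log2 ratios of 0.28 (0.18 to 0.38) and 0.39. It also held for mt-Nd3 of complex I, with 217 and 282 CPM and log2 ratios of 0.38 (0.14 to 0.62) and 0.53.

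The other 5 complex I genes depended on that cell. In mKO2high and mKO2low, CPM was 2957 and 2836 for mt-Nd1, 2203 and 2131 for mt-Nd4, 819 and 817 for mt-Nd5, and 976 and 953 for mt-Nd6, and their intervals spanned 0. Without the cell their log2 ratios were 0.32 for mt-Nd1, 0.32 for mt-Nd4, 0.32 for mt-Nd5 and 0.51 for mt-Nd6. The gene mt-Nd2, at 1967 and 1508 CPM, was the only one lower in mKO2low beyond counting error, at -0.38 (-0.47 to -0.30), and without the cell it was at 0.07. So 3 of 8 measured genes were above 0 with the cell, and 8 of 8 without it, with medians of -0.02 (0.02 with TMM factors) and 0.36 beside 0.05 and 0.04 over all 10901 and 10890 genes measured. With cells thinned to 5000 counts and that cell left out, 7 of 8 were above 0, at a median of 0.36.

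No messenger RNA differed by 2-fold or more between these gates in either direction, where 19.6% of all measured genes were at least 2-fold higher in mKO2low and 15.0% at least 2-fold lower. Of all 15 mitochondrial genes measured here, 1 was past 2-fold upward, the threonine transfer RNA mt-Tt with 12 against 2 counts and a log2 ratio of 1.43 (-0.45 to 4.92), and 1 downward, mt-Tc. The messenger RNAs have far more counts, and so less counting error, than most genes behind these percentages.

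Within the library of the other gates, mAG+ against mKO2neg, differences were small and of both signs. The summed log2 ratio of the messenger RNAs was 0.12 (0.10 to 0.15), and 5 of 8 genes were above 0 with a median of 0.14, beside 0.06 over all 12115 genes measured. CPM in mKO2neg and mAG+ was 2168 and 2743 for mt-Nd1, 211 and 295 for mt-Nd3, and 1106 and 1287 for mt-Nd2, with log2 ratios of 0.34 (0.28 to 0.40), 0.48 (0.30 to 0.67) and 0.22 (0.14 to 0.30). For mt-Cytb, at 3773 and 4121 CPM, the log2 ratio was 0.13 (0.08 to 0.17), and for mt-Nd6, at 780 and 863 CPM, it was 0.15 (0.05 to 0.25), though -0.18 with equal weight for every cell. These 5 genes were higher in the mAG+ sum beyond counting error. In the other direction, mt-Co1 was lower in mAG+, with 1521 against 1376 CPM and a log2 ratio of -0.14 (-0.22 to -0.07). The intervals of mt-Nd4 and mt-Nd5, at -0.02 and -0.12, spanned 0. No messenger RNA was past 2-fold, where 21.2% of all genes were at least 2-fold higher in mAG+ and 14.6% at least 2-fold lower. Over the same gates 20 of 20 genes of G2 and mitosis were at least 2-fold higher in mAG+, with a median log2 ratio of 3.22.

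**Figure D5:**
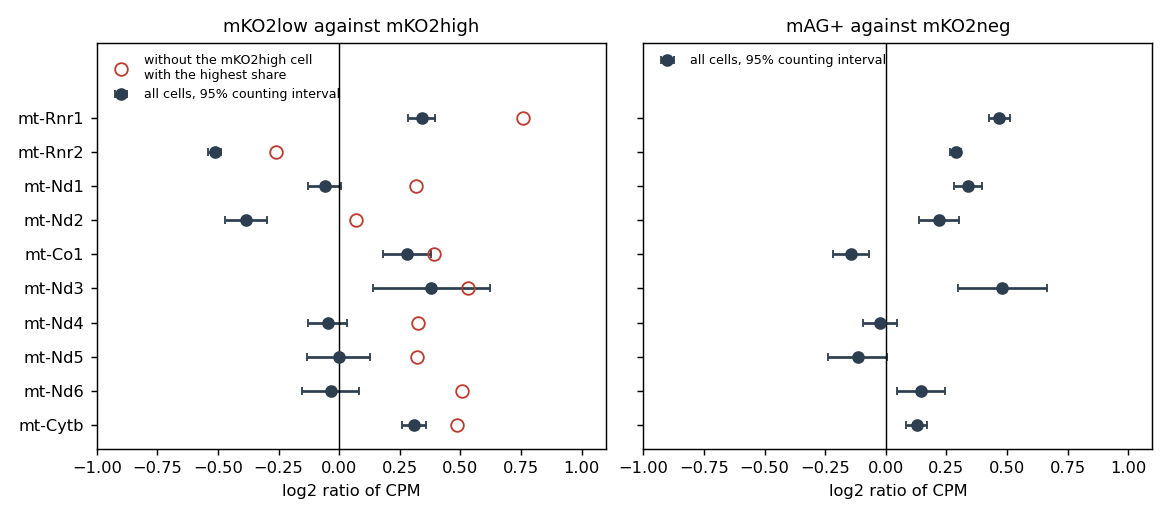
Log2 ratio of CPM for the 2 ribosomal RNAs and 8 measured messenger RNAs within each library; filled points are gate sums with 95% counting intervals, and open circles leave out the mKO2high cell with 44.24% mitochondrial counts. All 8 messenger RNAs lie above 0 in mKO2low without that cell, while mAG+ against mKO2neg has 5 above and 3 below.

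Across the libraries, mKO2neg against mKO2low, the messenger RNAs were lower in mKO2neg by a summed log2 ratio of -0.46 (-0.49 to -0.43). All 8 measured genes were below 0, with a median of -0.40 beside 0.01 over all 11375 genes, of which 49.5% were below 0. With equal weight for cells of at least 1000 gene rows 7 of 8 were below 0, and mt-Co1 was at 0.06. The difference was largest for mt-Cytb at -0.68 (-0.73 to -0.64) and mt-Nd5 at -0.54 (-0.66 to -0.42). It lay between -0.29 and -0.45 for mt-Nd1, mt-Nd2, mt-Nd3, mt-Nd4 and mt-Nd6, and was within counting error for mt-Co1 at -0.07 (-0.15 to 0.01). None was past 2-fold, where 15.3% of all genes were at least 2-fold higher and 16.7% at least 2-fold lower in mKO2neg. One member was, mt-Tt, with 0 counts in mKO2neg, where 3 counts are 1.86 CPM, against 12 counts or 7.05 CPM in mKO2low. In this comparison the gate and the library cannot be told apart.

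Between the ends of the reporter, mAG+ against mKO2high, the sign depended on the mitochondrial-rich cell. The summed log2 ratio was -0.26 (-0.29 to -0.23) with it and 0.04 (0.01 to 0.07) without it, and 2 and 4 of 8 genes were above 0. The value without it was -0.005 with cells thinned to 5000 counts and -0.022 with equal weight for cells of at least 1000 gene rows, so its sign did not hold. Medians of the 8 genes were -0.212 with the cell and 0.054 without it, beside 0.123 and 0.119 over all genes measured. Of all 11849 genes measured with the cell, 54.3% were above 0. The genes mt-Nd5 and mt-Nd2 were lower in mAG+ either way, at -0.66 and -0.61 with the cell and -0.33 and -0.16 without it. The gene mt-Nd3 was higher either way, at 0.44 and 0.60. No messenger RNA was past 2-fold, and mt-Tc was, downward, where 26.2% of genes were at least 2-fold higher and 17.1% at least 2-fold lower in mAG+. These gates also come from different libraries, and the comparison shares its mAG+ and mKO2high cells with the others.

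The makeup of the messenger RNA pool was alike in outline in all gates. As a share of the 13 genes, mt-Cytb made up 31.8% in mKO2high and 37.4% in mKO2low, with 32.0% in mKO2neg and 32.1% in mAG+, with mKO2low highest beyond counting error. Without the mitochondrial-rich cell the mKO2high share was 34.6% (33.8 to 35.5), still under mKO2low at 36.8% to 38.0%. For mt-Nd1 the shares were 19.3% (18.3% without the cell), 17.5%, 18.4% and 21.4%, highest in mAG+. For mt-Co1 they were 8.59% (9.78% without the cell), 9.89%, 12.9% and 10.7%, highest in mKO2neg. The minus-strand gene mt-Nd6 had 1.19 counts per count of its plus-strand neighbour mt-Nd5 in mKO2high (1.02 without the cell) and 1.17 in mKO2low, with 1.39 in mKO2neg and 1.66 in mAG+, so this ratio was higher in both gates of the mKO2neg and mAG+ library.

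Ribosomal RNA made up 58.94% of all mitochondrial counts. Per count of messenger RNA there were 1.56 counts of ribosomal RNA in mKO2high (1.57 without the mitochondrial-rich cell) and 1.18 in mKO2low, with 1.43 in mKO2neg and 1.65 in mAG+, so mKO2low was low on this measure and high in messenger RNA.

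The nuclear partners of these genes followed another order over the gates. Summed over 75 nuclear genes of complexes I to V, the share of counts was 2.128% in mKO2high (2.153% without the cell) and 2.386% in mKO2low, with 2.496% in mKO2neg and 2.724% in mAG+. It was higher in mKO2low than in mKO2high by a log2 ratio of 0.17 (0.14 to 0.19) and in mAG+ than in mKO2neg by 0.13 (0.11 to 0.14). Of 74 measured genes, 52 were above 0 in the first comparison and 54 in the second, with medians of 0.20 and 0.19, where 52.2% and 52.8% of all genes were above 0. Past 2-fold were 1 and 2 genes upward and 0 downward, where 19.6% and 21.2% of all genes were past it upward and 15.0% and 14.6% downward. In mKO2neg against mKO2low, where all 8 mitochondrial messenger RNAs were below 0, 46 of 74 nuclear genes were above 0 with a median of 0.11, where 50.5% of all genes were above 0. For example, Cox4i1 and Cox8a of complex IV had 1206 and 748 CPM in mKO2low and 1337 and 787 in mKO2neg, and Atp5b of ATP synthase had 809 and 877.

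Counts of mitochondrial messenger RNA per count of these nuclear genes were therefore 0.721 in mKO2high (0.58 without the mitochondrial-rich cell) and 0.678 in mKO2low, with 0.472 in mKO2neg and 0.471 in mAG+. With all cells the ratio was alike in both gates of 1 library and higher in both gates of the other. Without the mitochondrial-rich cell mKO2high lay between mKO2low and mKO2neg. Medians over cells with at least 1000 gene rows were 0.5883, 0.7146, 0.5057 and 0.4665 in the same order. The quartiles of mKO2high, 0.4905 to 0.78, overlapped those of mKO2neg, 0.4036 to 0.5893. Because the split runs between the libraries, it cannot be told apart from a difference between them.

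Other genes that act on mitochondrial DNA and RNA, from lists drawn up for these comparisons, were measured beside the members. The 20 genes of mitochondrial transcription and DNA maintenance summed to 930.4 CPM in mKO2high and 866.6 in mKO2low, with 752.2 in mKO2neg and 638 in mAG+. Of these 20, 11 were above 0 in mKO2low against mKO2high, 7 past 2-fold upward and 3 downward, where over all genes 52.2% were above 0, 19.6% past 2-fold upward and 15.0% downward. In mAG+ against mKO2neg 9 of 20 were above 0, 4 past 2-fold upward and 2 downward, where over all genes the shares were 52.8%, 21.2% and 14.6%. The shares above 0, 55.0% and 45.0%, were near those of all genes, while the medians were 0.418 and -0.188, beside 0.047 and 0.063. In mKO2neg against mKO2low, across the libraries, 15 of 20 were below 0, 7 past 2-fold downward and 0 upward. Over all genes the shares there were 49.5%, 16.7% and 15.3%. The gene Tfam, whose product packages mitochondrial DNA and starts its transcription, had 32.1 CPM in mKO2high and 79.3 in mKO2low, with 58.4 in mKO2neg and 61.6 in mAG+. It was thus low in mKO2high, with a log2 ratio of mKO2low to mKO2high of 1.28 (0.72 to 1.93). The kinase Tk2, which supplies nucleotides for mitochondrial DNA, had 108.1, 52.8, 37.3 and 27.9 CPM and was highest in mKO2high, where Tfam was lowest. Ssbp1, which binds single-stranded mitochondrial DNA, had 212, 169, 169 and 123 CPM.

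For RNA processing and stability, 19 of 20 genes found were measured, and 11 were above 0 in mKO2low against mKO2high (5 and 1 past 2-fold upward and downward) and 10 in mAG+ against mKO2neg (2 and 4). The shares above 0, 57.9% and 52.6%, were near the 52.2% and 52.8% of all genes, of which 19.6% and 15.0% were past 2-fold upward and downward in the first comparison and 21.2% and 14.6% in the second. Hsd17b10, a subunit of the enzyme that cuts the 5' ends of mitochondrial transfer RNAs, had 290, 330, 308 and 180 CPM in mKO2high, mKO2low, mKO2neg and mAG+, lowest in mAG+. Of 75 measured genes of mitochondrial ribosomal proteins, the partners of mt-Rnr1 and mt-Rnr2, 38 were above 0 in mKO2low against mKO2high and 36 in mAG+ against mKO2neg, with medians of 0.03 and -0.06. Among regulators of biogenesis, 7 were measured in both comparisons and 4 were above 0 in each, with medians of 0.303 and 0.569. Past 2-fold upward and downward were 3 and 1 of the 7 in the first comparison and 1 and 2 in the second. Myc, with 300.8, 188.5, 249.3 and 121.1 CPM, was below 0 in both. Its log2 ratios were -0.673 (-0.91 to -0.439) and -1.039 (-1.255 to -0.829).

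Genes of mitophagy, the removal of mitochondria by autophagy, summed to 1852 CPM in mKO2high and 1208 in mKO2low, with 1386 in mKO2neg and 943.2 in mAG+. In mKO2low against mKO2high 6 of 9 were below 0 with a median of -0.65, 3 past 2-fold downward and 2 upward, where over all genes 47.8% were below 0, 15.0% past 2-fold downward and 19.6% upward. In mAG+ against mKO2neg 8 of 10 were below 0 with a median of -0.69, 3 past 2-fold downward and 1 upward, where over all genes the shares were 47.2%, 14.6% and 21.2%. Sqstm1, a receptor for autophagy, had 296 CPM in mKO2high and 144 in mKO2low, with 173 in mKO2neg and 74.2 in mAG+, and Map1lc3b, which coats the forming vesicle, had 745, 476, 617 and 431. Both were highest in mKO2high and lowest in mAG+, as was Bnip3l with 209.8, 138, 161.6 and 119.6 CPM. Phb2, with 293.4, 176.7, 207 and 195.9 CPM, was also highest in mKO2high but lowest in mKO2low. Its log2 ratio of mAG+ to mKO2neg was within counting error, at -0.079 (-0.278 to 0.122). These sums over the list are not independent of its largest members, and no test was run.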

How the data were processed

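The tables deposited by the authors hold raw counts, a whole number for each gene in each cell. The submitters' processing notes name HISAT2, HTSeq 0.11.3, Seurat and the build mm10, without role or order. The sources used here do not give the annotation release, strand use or molecular identifiers. Of 53378 rows, 53273 matched GENCODE M21 by gene ID, and 105 with 0.222% of counts did not. Each gene was read from the row of the gene before it in GENCODE M21 order. Counts were summed per gate (48 cells, from 0 to 210516 counts per cell) and scaled to CPM. Log2 ratios used a prior count of 1, at least 10 counts over both gates, and a threshold of 2-fold. Intervals are exact at 95% (conditional binomial, Clopper-Pearson for shares), and the floor is 3 counts per gate. Reads are not independent molecules, so these cover counting error only. Thinning to 5000 counts left out 9, 0, 5 and 3 cells of mKO2high, mKO2low, mKO2neg and mAG+. No cell name was shared by the libraries. Doublets were not called, since cells were handled singly. Copies were found with blastn 2.17.0 among GENCODE M21 transcripts. Alternatives used edgeR 4.0.16, DESeq2 1.42.0, equal weight per cell, thinning, filters on cells and genes, and each row under its own label. Scripts ran in Python 3.11.15 and R 4.3.3 and were tested on simulated data. Named are all messenger and ribosomal RNA genes, the 4 transfer RNAs with the most counts, mt-Tt (chosen after its values were seen, as past 2-fold), and of other lists mostly members among the 4 with the highest mean CPM. Members and lists were chosen with earlier results of these data known. The listed symbols Atp5pb and Mrpp3 were not found.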

Additional observations from a re-analysis of the deposited data

Results flagged for a closer look

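The row labelled mt-Tt held 509 counts that no gene above uses. It would be the row of mt-Tp, the proline transfer RNA on the minus strand, were mt-Tp among the labels, and its counts were assigned to no gene. It held 130 counts or 139 CPM in mKO2high, 132 or 77.5 CPM in mKO2low, 120 or 74.6 CPM in mKO2neg and 127 or 45.5 CPM in mAG+. It was singled out as a signal in data outside the comparisons, above the floor of 3 counts in every gate.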

How the results depend on the processing

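No paired analysis was possible because the 2 labelled samples are libraries that hold different gates, each gate was measured once, and cells are not replicates. Depth limits genes under 10 counts, and results within counting error. For single genes, 453 of 631 values under the alternatives moved by less than counting error and 163 by more. Another 15 changed sign from a main value whose interval excluded 0. Sign changes from main values whose intervals spanned 0 are counted among the 453 and 163. An example is mt-Nd6 in mKO2low against mKO2high, at -0.035, and 0.507 without the mitochondrial-rich cell.

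The summed messenger RNA ratio of mKO2low to mKO2high, 0.076, was 0.112 with TMM factors, 0.047 with equal weight per cell, -0.108 with cells thinned to 5000 counts, -0.042 from rows under their own labels and 0.046 when each gate lost its deepest cell. Settings chosen after seeing the data gave 0.374 without the mitochondrial-rich cell, 0.297 with thinning as well, and with equal weight for cells of at least 1000 gene rows -0.039 with it and 0.336 without it. For mAG+ against mKO2neg, 0.124 became 0.16 with equal weight, 0.093 thinned, 0.037 under own labels, 0.082 without the deepest cells and 0.06 with equal weight for cells of at least 1000 gene rows. For mKO2neg against mKO2low, -0.459 became -0.523, -0.395, -0.346, -0.412 and -0.418 in the same order. For mAG+ against mKO2high, -0.258 became -0.316 with equal weight, -0.41 thinned, -0.351 under own labels and -0.397 with equal weight for cells of at least 1000 gene rows. Without the mitochondrial-rich cell it was 0.04, -0.005 when thinned and -0.022 with equal weight for cells of at least 1000 gene rows.

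Without that cell the median of the messenger RNAs in mAG+ against mKO2high was 0.054, 0.047 when thinned and 0.021 with the same equal weight. In the same 3 settings mt-Nd1 was 0.267, 0.066 and 0.123, and mt-Nd6 0.364, 0.15 and 0.225 (0.436 under own labels), and mt-Nd4 was 0.028 when thinned. In mKO2low against mKO2high, mt-Nd2 was 0.07 without it and 0.026 with equal weight as well. With equal weight for all cells, mAG+ against mKO2neg gave -0.276 for mt-Rnr1, -0.402 for mt-Rnr2 and -0.176 for mt-Nd6, and mKO2neg against mKO2low gave 0.243 for mt-Rnr1 and 0.494 for mt-Rnr2. This setting includes mKO2neg cells of under 1000 counts, whose ribosomal RNA shares reach 33.33% and 15.25%. The median in mAG+ against mKO2neg was 0.0 with no filter, since 5 of 13 genes then sit near 0.

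Median cell shares of messenger RNA under own labels were 0.215%, 0.325%, 0.23% and 0.236% for mKO2high, mKO2low, mKO2neg and mAG+. The ribosomal RNA share of mitochondrial counts was 60.4%, 53.8%, 58.4% and 61.9%. Without the mitochondrial-rich cell it was 60.7% in mKO2high. It was 61.4%, 56.7%, 71.5% and 63.7% with equal weight, 0.0054%, 0.00662%, 0.00431% and 0.0115% under own labels, 56.7% in mKO2low and 60.2% in mKO2neg when thinned, and 54.3% in mKO2low without its deepest cell. Equal weight moved the median of all genes in mKO2neg against mKO2low from 0.010 to -0.124, and thinning that in mAG+ against mKO2high from 0.123 to -0.012. Where not stated, the cause was not tested.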
